A study of Mus musculus with 9 samples.

Results

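The genes described here encode 9 heat shock proteins of the cytosol and of mitochondria, together with Hsf1, the transcription factor that induces them. They were chosen by name, as 10 gene symbols, from 18193 genes that the platform's annotation pairs with a probe set of their own. For 9 of the 10, 22 such probe sets were found. None named Hsf1, which was therefore not analysed here. Each gene was read from its brightest probe set over all arrays, and all 4 probe sets of Hspa1a and Hspa1b were read one by one.

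RNA was taken from spleen cells of C57BL/6 mice that adhered and were then selected magnetically for CD11b, an integrin chain of myeloid and natural killer cells. The HighThreat group, called threat animals below, holds 6 mice exposed to social threat repeatedly, with 1 Affymetrix MOE430 array per animal, numbered 1 to 6. The LowThreat group, called control pools, holds 6 mice kept without threat, whose RNA was combined by 2 onto 3 arrays, named 1-2, 3-4 and 5-6. A control array is thus already an average over 2 animals, so the spread between control arrays is not the spread between single mice. The sources used here give no sex, age or length of exposure, and all mice share the strain and the isolation. The design asks whether expression in these cells differs between the conditions.

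Heat shock proteins are chaperones, which hold, fold or refold other proteins. In unstressed cells HSF1 is kept inactive by chaperones in the cytosol. When unfolded proteins occupy those chaperones, HSF1 forms trimers, binds heat shock elements, which are inverted repeats of a short GAA unit, and raises transcription of the inducible HSP70 genes, Hsph1, Dnajb1 and others within minutes. Leukocytes, like other cells, mount this response to heat and other stress that damages proteins.

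The promoters are shown because HSF1 binds heat shock elements and because Hspa1a and Hspa1b are near copies. The part of HSF1 in the differences was not tested. RefSeq, on mouse build GRCm38.p6, gave a promoter window for 7 of the 10 genes, and the 250 bases before the annotated start were searched on both strands for the 2-unit elements GAANNTTC and TTCNNGAA, which can overlap. Either element occurs in 12.8% of 32851 promoter windows of the same length. It was found for 6 of the 7 genes, where a gene with 2 windows was counted if either held it. The count per gene is thus not the same measure as the share per window. Nor are the 6 separate, since the Hspa1a and Hspa1b windows are near copies and Hspd1 and Hspe1 share a stretch. The Hspa1a window is chr17:34972157-34972406 and the Hspa1b window chr17:34959239-34959488, both on the minus strand, written 5′ to 3′ with the element GAANNTTC in capitals.
Hspa1a: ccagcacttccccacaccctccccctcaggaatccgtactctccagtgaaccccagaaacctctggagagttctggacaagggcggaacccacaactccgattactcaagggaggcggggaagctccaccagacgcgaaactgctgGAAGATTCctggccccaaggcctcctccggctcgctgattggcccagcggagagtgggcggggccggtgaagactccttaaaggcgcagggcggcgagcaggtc
Hspa1b: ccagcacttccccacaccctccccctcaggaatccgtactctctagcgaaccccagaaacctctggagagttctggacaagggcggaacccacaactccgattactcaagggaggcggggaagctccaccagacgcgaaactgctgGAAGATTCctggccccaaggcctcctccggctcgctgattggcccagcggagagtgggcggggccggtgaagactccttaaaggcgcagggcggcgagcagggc
The 2 windows are identical at 98.8% of their bases and differ at 3 positions, counted from 1 at the 5′ end of the window, with the Hspa1a base first: C44T, T47C and T249G. The element lies 97 bases before the start in both.

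For the other genes, 30 bases around each element are shown, with the element in capitals, so that the arrangement of its units can be compared. The windows are chr5:149636351-149636380 on the minus strand for Hsph1, chr1:55088053-55088082 on the plus strand for Hspe1, and chr5:135887791-135887820 and chr5:135887811-135887840 on the plus strand for Hspb1.
Hsph1: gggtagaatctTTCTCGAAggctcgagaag
Hspe1: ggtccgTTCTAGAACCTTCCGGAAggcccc
Hspb1, first element: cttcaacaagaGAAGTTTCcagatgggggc
Hspb1, second element: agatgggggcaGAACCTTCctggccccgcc
The Hspe1 stretch joins overlapping elements into a run of 18 bases that ends 72 bases before the gene's start. Read on the other strand, the same stretch lies 127 bases before 1 of the 2 annotated starts of Hspd1, since these genes are transcribed away from each other. It joins 3 or more alternating units spaced by 2 bases, an arrangement found in 0.466% of all windows. Neither Dnajb1 window holds a 2-unit element. These matches describe letters only, and no binding was measured.

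Most of these genes had lower expression in threat animals than in control pools, and the 2 inducible HSP70 genes fell the furthest. With limma, 7 of the 9 measured genes were lower in threat animals at a Benjamini-Hochberg adjusted p under 0.05 and 0 were higher (6 to 9 lower over all alternatives run, and 0 higher under each of them); the 2 without a call, Dnajb1 and Hspb1, had unadjusted p of 0.0275 and 0.331. Over all 13078 tested genes 45.8% were called, 22.0% lower and 23.8% higher. None of the 9 was higher at an unadjusted p under 0.05 either. The same 7 genes had threat values that all lay below every control value, as did 20.3% of tested genes. The median difference of the 9 genes was -0.42 on the log2 scale, beside 0.029 for all tested genes. Of the 9, 3 fell by at least 2-fold, as did 2.23% of tested genes. The share of genes called lower grows with brightness. With the filter raised to the 60th percentile of probe set means, 8 of the 9 were called lower, beside 27.6% of tested genes.

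**Figure D1:**
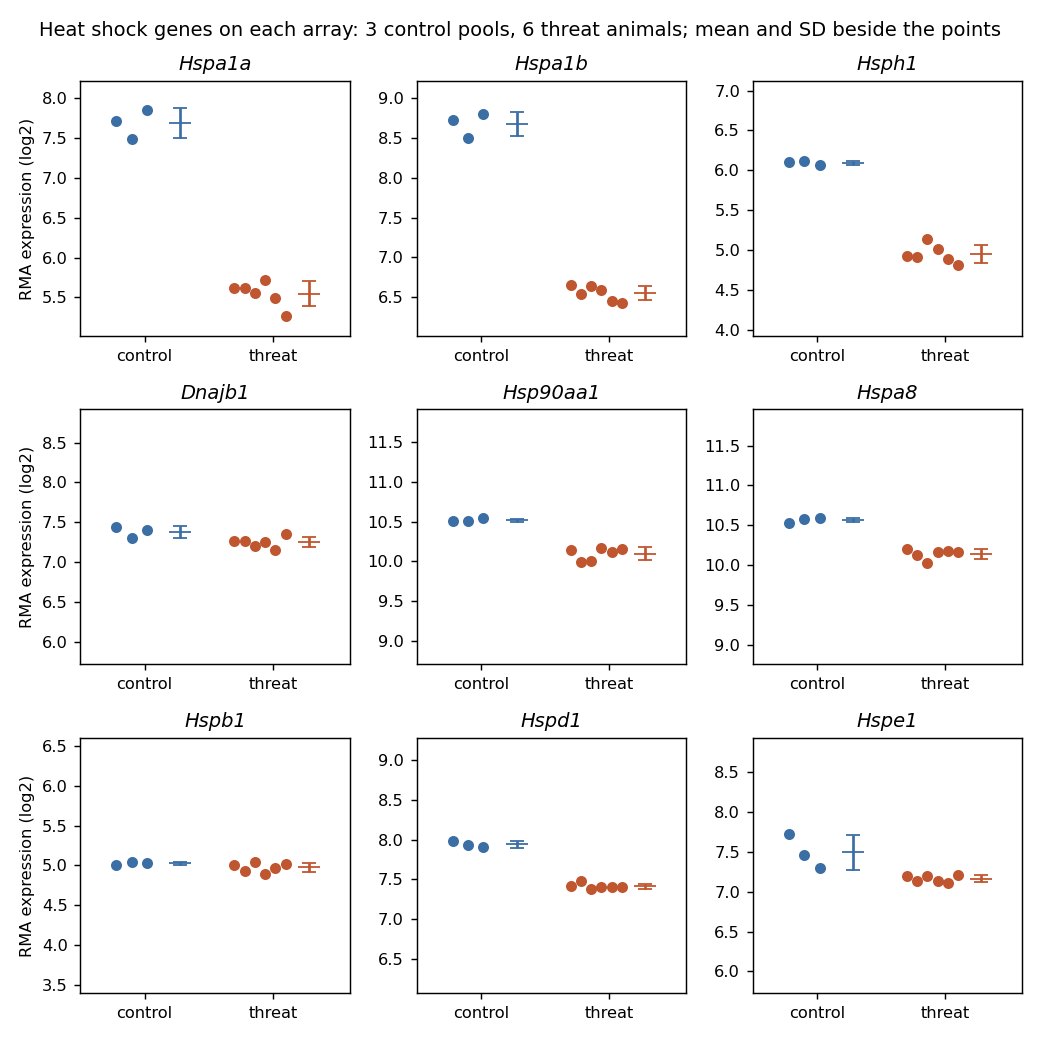
RMA expression on the log2 scale (vertical axis, the same span of log2 units in each panel) for the 9 measured genes on 3 control pools (blue) and 6 threat animals (orange); bars give mean and SD. Hspa1a, Hspa1b and Hsph1 show the widest gaps between groups, while the points of Dnajb1 and Hspb1 overlap.

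Hspa1a and Hspa1b encode the stress-inducible cytosolic HSP70, with nearly the same protein made from both. Hspa1b read 8.72, 8.50 and 8.80 in control pools 1-2, 3-4 and 5-6. In threat animals it ran from 6.44 to 6.65 with a median of 6.57. The highest threat animal was thus well below the lowest control pool. The mean went from 8.68 ± 0.16 (SD, n = 3) to 6.55 ± 0.093 (SD, n = 6), and Hspa1b fell by 2.12 (SE 0.073, adjusted p = 5.7e-10), which is 4.35-fold.

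Hspa1a read 7.72, 7.49 and 7.86 in the control pools and from 5.27 to 5.72 in threat animals, with a median of 5.59. Animal 6 was the lowest and animal 4 the highest, and the groups did not overlap. Hspa1a fell by 2.14 (SE 0.097, adjusted p = 4.4e-09), which is 4.41-fold and the 37th lowest difference of all tested genes, with Hspa1b next to it as the 38th. The remaining 2 probe sets of Hspa1b gave the same size: it fell by 2.13 (SE 0.080) at probe set 1427127_x_at and fell by 2.14 (SE 0.082) at 1427126_at. Since the copies are near-identical, probe sets may read both, and these 4 values are not 4 independent measurements. The difference of Hspa1b minus that of Hspa1a was 0.020 (95% confidence interval -0.13 to 0.17, exact permutation p = 0.774), Hspa1a having fallen slightly more. If the probe sets read both copies, this interval compares probe sets and cannot bound a difference between the genes.

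Hsph1 encodes HSP110, a large HSP70 relative that releases nucleotide from HSP70 and helps it dissolve aggregates. It read 6.10, 6.11 and 6.06 in the control pools. Threat animals ran from 4.82 to 5.14 with a median of 4.92, all below the controls. Hsph1 fell by 1.14 (SE 0.066, adjusted p = 2.9e-08), and its dimmer probe set fell by 1.34 (SE 0.076).

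Dnajb1 encodes HSP40, the J-domain protein that delivers clients to inducible HSP70. It read 7.44, 7.30 and 7.41 in the control pools and between 7.16 and 7.35 in threat animals, with a median of 7.26. Threat animal 6 lay above control pool 3-4, so the groups overlapped, and the difference was -0.13 (95% confidence interval -0.25 to -0.018, adjusted p = 0.0584). The probe sets of Dnajb1 disagreed in the call: at 1416756_at all threat animals were below all controls and it fell by 0.24 (SE 0.046, adjusted p = 0.0018 over all probe sets). Its interval at that probe set reached to -0.34, while that of Hspa1b ended at -1.96.

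Hspa8 and Hsp90aa1, the brightest of these genes, fell by nearly the same amount at their brightest probe sets. Hspa8, the HSC70 that serves folding in unstressed cells, read 10.53, 10.58 and 10.59 in the control pools and from 10.02 to 10.20 in threat animals, with a median of 10.16. The groups did not overlap, and Hspa8 fell by 0.42 (SE 0.050, adjusted p = 1.7e-05), or 1.34-fold. Its other probe sets fell by 0.57 to 0.83, and the largest of these belongs to the dimmest of them, 1431182_at. Hsp90aa1, the inducible form of cytosolic HSP90, which matures kinases and steroid receptors, read 10.51, 10.50 and 10.54 in control pools and between 9.99 and 10.17 in threat animals, with a median of 10.13. It fell by 0.42 (SE 0.054, adjusted p = 3.9e-05), also with no overlap. Its probe sets 1437497_a_at and 1426645_at fell by 0.45 and fell by 0.35, respectively. A further probe set, 1433251_at, differed by -0.040 (adjusted p = 0.619) at a mean of 2.75, near the filter value of 2.66, the 40th percentile of probe set means, under which nothing was tested, and 1441827_x_at was below that value.

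Genes were compared directly, as the difference of 2 genes on each array, for 5 pairs picked with the values known. Hspa1b fell further than Hspa8 (difference -1.70, 95% confidence interval -1.93 to -1.46, exact permutation p = 0.0119, adjusted over the 5 pairs 0.0298). It also fell further than Hsph1 (difference -0.98, interval -1.17 to -0.78, exact permutation p = 0.0119, adjusted 0.0298). The value 0.0119 is the smallest that 84 divisions of 9 arrays into 6 and 3 can give. The differences of Hsp90aa1 and Hspa8 were 0.0067 apart at their brightest probe sets (interval -0.066 to 0.080, exact permutation p = 0.857). With transcript-specific probe sets taken first, Hspa8 differed by -0.83 and Hsp90aa1 by -0.35. The interval therefore holds for the brightest probe sets and does not bound a difference between the genes.

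Hspb1 encodes the small heat shock protein HSP25, an ATP-independent holder of unfolded proteins that is phosphorylated by MAPKAPK2. It read 5.00, 5.04 and 5.03 in control pools and between 4.89 and 5.04 in threat animals, with a median of 4.99. Threat and control values overlapped, and the difference was -0.049 (95% confidence interval -0.15 to 0.056, adjusted p = 0.442). The dimmer probe set 1425964_x_at of Hspb1 did pass, with a fall of 0.30 (SE 0.092, adjusted p = 0.023 over all probe sets), although its groups overlapped too.

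In mitochondria, Hspd1 (HSP60) forms the folding chamber and Hspe1 (HSP10) its lid. Hspd1 read 7.98, 7.93 and 7.90 in control pools and between 7.38 and 7.48 in threat animals, with a median of 7.40. No threat animal came near the controls, and Hspd1 fell by 0.53 (SE 0.044, adjusted p = 8.7e-07), or 1.44-fold. Hspe1 read 7.72, 7.47 and 7.29 in control pools, a wider spread than in threat animals, which ran from 7.11 to 7.22 with a median of 7.17. Control pool 5-6 was only just above the highest threat animal. Hspe1 fell by 0.33 (SE 0.077, adjusted p = 0.0035), and it fell by 0.21 (adjusted p = 0.0157) without control pool 1-2, the highest. Its second probe set, 1422579_at, differed by -0.10 (adjusted p = 0.231 over all probe sets). The differences of Hspd1 and Hspe1 were 0.20 apart (difference -0.20, interval -0.38 to -0.015, exact permutation p = 0.0476, adjusted 0.0794).

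**Figure D2:**
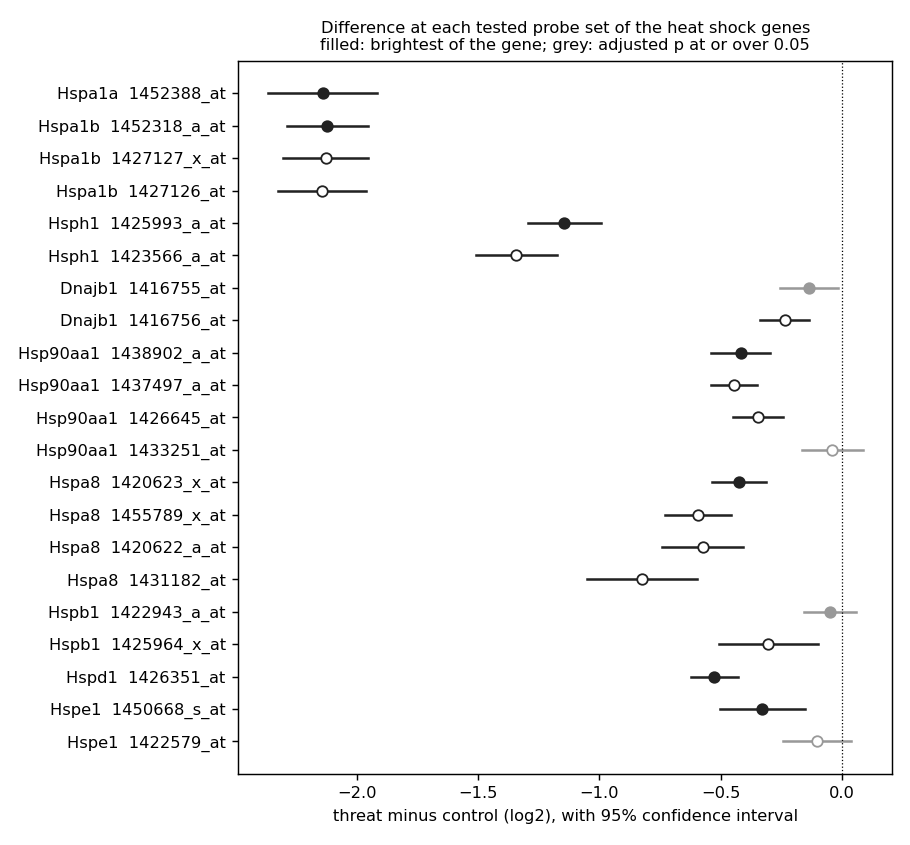
Difference between threat animals and control pools on the log2 scale (horizontal axis) with its 95% confidence interval for each of 21 tested probe sets, ordered by gene. The 4 probe sets of Hspa1a and Hspa1b lie together near -2.1, and all 4 probe sets drawn in grey, whose adjusted p was not under 0.05, lie closer to 0.

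Over all tested probe sets of these genes, 17 of 21 were called lower and 0 higher with limma, beside 20.9% of 27022 probe sets called lower and 39.8% called in either direction. The 4 without a call belong to Dnajb1, Hsp90aa1, Hspb1 and Hspe1, and each of these genes has another probe set that was called. Among threat animals no animal was the highest or lowest throughout: animal 6 was lowest for 3 genes and highest for 2, and animal 1 was highest for 2 and lowest for 0. The genes for which animal 6 was lowest were Hspa1a, Hspa1b and Hsph1, those that fell by at least 2-fold. Animal 5 was next lowest for each of them. The SD between threat animals ranged from 0.034 for Hspd1 to 0.16 for Hspa1a, against a median of 0.085 over all tested genes.

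Further genes of the chaperone network were taken by list. A list of 18 further genes known as HSF1 targets held 13 that could be tested, of which 6 (46.2%) fell and 1 rose, with a median of -0.13. Of all tested genes, 45.8% were called in either direction and 22.0% were called lower. With the filter at the 60th percentile, 6 of 10 were lower, beside 27.6% of tested genes. Dnajb4, a J-domain partner of HSP70, fell by 0.72 (SE 0.049) from 9.47 ± 0.036 (SD, n = 3) to 8.75 ± 0.057 (SD, n = 6), with no overlap. Dnaja1, another such partner, fell by 0.49 (SE 0.042). The HSP90 co-chaperone Fkbp4 fell by 0.59 and the exchange factor Bag3 fell by 0.26. The gene that rose was Serpinh1, a collagen chaperone of the endoplasmic reticulum, by 0.21 (adjusted p = 0.0429). Fkbp4, Bag3 and Serpinh1 are named after their values were seen. The HSP90 regulators Stip1 and Ahsa1 differed by 0.17 (adjusted p = 0.0642) and -0.067 (adjusted p = 0.237). None of the 13 reached a 2-fold change. Without control pool 3-4, 4 of the 13 were called, all lower. In that setting 5487 of all 13074 tested genes were called, and 19.7% of those tested were lower.

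The 7 other lists, by role, held 65 tested genes, of which 25 fell and 7 rose, with a median of -0.086. That is 38.5% lower, beside the 22.0% of all tested genes. When arrays were scaled on their hybridisation spike-ins, 16 of the 65 (24.6%) fell and 2 rose. Over all genes 18.8% were then called lower, 2465 genes in place of 2876, and 1325 were called higher in place of 3119. The share of calls that were lower went from 48.0% to 65.0%. None of the 65 changed by 2-fold. Where a list is given with 0 genes in a direction, 0 had an unadjusted p under 0.05 in it.

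Among HSP70 relatives and exchange factors, 4 of 10 (40%) fell and 1 rose. St13, a cochaperone of HSP70, fell by 0.47 (SE 0.054), and Bag4, a BAG-domain exchange factor, by 0.51 (SE 0.080). Bag4 was dim, with a mean of 3.33 in control pools and 2.82 in threat animals, the latter close to the filter value. Hspa14 and Bag5 were the other genes that fell, and Hspa13 rose by 0.18. Among J-domain proteins, 6 of 10 (60%) fell and 0 rose. Dnajb2 fell by 0.39 (SE 0.054), Dnajc2 by 0.32 (SE 0.048) and Dnaja2, the brightest, by 0.27 (SE 0.055).

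Among cofactors of HSP90, 2 of 7 (28.6%) fell and 2 rose, shares near those of all tested genes. Unc45a, a myosin chaperone, fell by 0.21 (SE 0.047), as did Nudc by 0.19. Pih1d1, which serves assembly of large complexes, rose by 0.32 (SE 0.076), and Sugt1 rose by 0.17 (SE 0.048). In the cytosolic chaperonin, which folds actin and tubulin, and its helper prefoldin, 7 of 13 (53.8%) fell and 0 rose. Cct3 fell by 0.55 (SE 0.055), Cct6a by 0.36 (SE 0.053) and Cct2 by 0.20 (SE 0.044).

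In mitochondria beyond Hspd1 and Hspe1, 3 of 13 genes fell and 1 rose, and the 23.1% that fell is near the 22.0% of all tested genes. Hspa9, the HSP70 that pulls proteins through the inner membrane, fell by 0.67 (SE 0.062), from 7.97 ± 0.038 (SD, n = 3) to 7.30 ± 0.10 (SD, n = 6). The protease gene Htra2 fell by 0.30 (SE 0.047), and Dnaja3, the J-domain partner of Hspa9, by 0.19 (SE 0.066, adjusted p = 0.0294). The gene that rose was Hscb, a J-domain protein of iron-sulphur cluster assembly, by 0.19. The HSP90 relative Trap1 differed by 0.029 (adjusted p = 0.707).

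Of 4 tested small heat shock proteins, 2 rose and 0 fell. Hspb11, an intraflagellar transport subunit despite its name, rose by 0.70 (SE 0.069), and Hspb2 rose by 0.19 (SE 0.054) at a level of 2.68 to 2.87, close to the filter value. Of 8 tested heat shock factors and regulators, 3 (37.5%) fell and 1 rose. Mapkapk2, the kinase of HSP25, rose by 0.44 (SE 0.051) while its relative Mapkapk3 fell by 0.42 (SE 0.054). The deacetylase Sirt1, which prolongs HSF1 binding, fell by 0.52 (SE 0.095), and Vcp, the segregase of ubiquitinated proteins, by 0.27. Hsbp1, a binding partner of HSF1 that restrains it, differed by 0.12 (adjusted p = 0.103). Hsf2 was below the filter value.

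**Figure D3:**
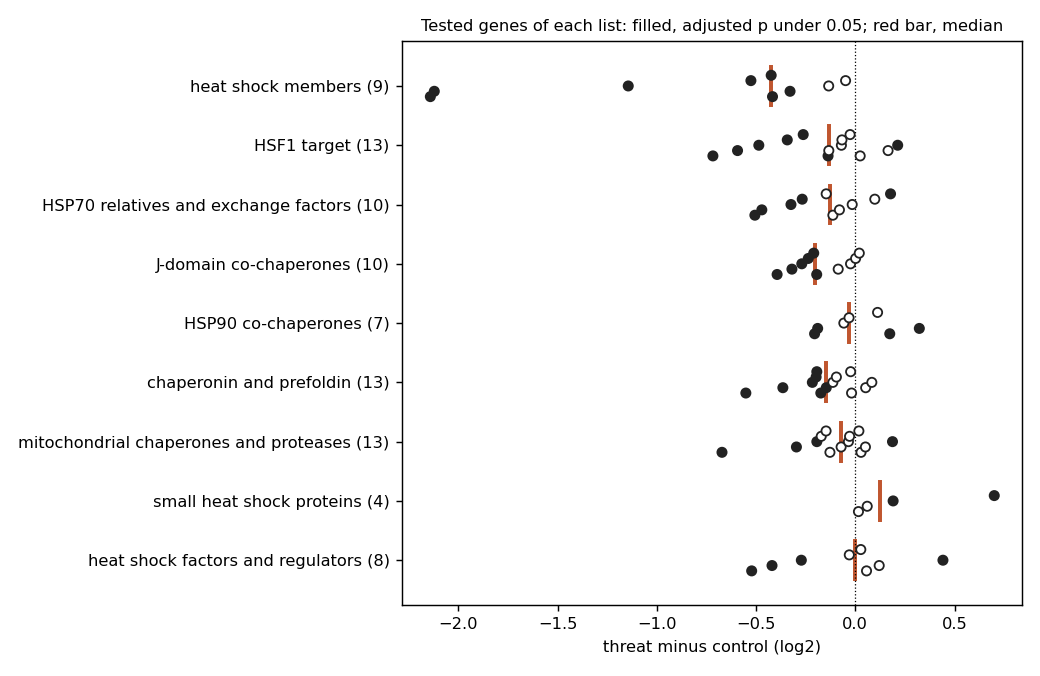
Difference between threat animals and control pools on the log2 scale (horizontal axis) for each tested gene of the 9 heat shock genes and of 8 lists, with the number of genes in brackets; filled points had an adjusted p under 0.05 and red bars are medians. Hspa1a, Hspa1b and Hsph1 are the only points at or below -1.

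Genes with the array profile closest to that of Hspa1b were sought among all tested genes, by the root mean square difference of profiles centred on their own mean over 9 arrays. Beside Hspa1a, at 0.081, the 3 closest were the tubulin gene Tubb2b (0.080), H2-Ob (0.090), a class II accessory chain that B cells carry, and Fcrla (0.093), an Fc receptor-like gene of B cells. Tubb2b fell by 2.25 (SE 0.073), H2-Ob by 2.19 (SE 0.10) and Fcrla by 2.02 (SE 0.076). Hsph1 was at 0.47, with 203 genes closer, and Hspa8 at 0.81, with 1229 closer. With only a threat and a control group and small spreads within them, this distance mostly follows the size of the fall. Ranked by their difference alone, Hsph1 was the 218th lowest of all tested genes and Hspa8 the 1257th. Closeness here thus shows a fall of similar size, and shared regulation was not tested.

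Marker genes of several cell types also differed in the same arrays. Their counts stand beside 22.0% of all tested genes called lower and 23.8% called higher. Of 6 B cell genes, 5 had a probe set of their own and 4 fell, and their mean ran from 7.01 to 7.15 in control pools and from 4.88 to 5.34 in threat animals. Of 5 measured natural killer genes 4 fell, with a mean of 5.82 to 6.04 in control pools and 4.07 to 4.31 in threat animals. Of 6 dendritic cell genes, 5 were tested and all of these fell (5.38 to 5.50 and 4.38 to 4.48), and of 3 tested T cell genes 2 fell (4.07 to 4.33 and 3.45 to 3.64 over 4 measured). Of 8 granulocyte genes 7 rose (9.52 to 9.72 and 10.77 to 11.24), of 6 monocyte and macrophage genes 5 rose (9.92 to 10.00 and 10.27 to 10.34), and of 5 red pulp macrophage genes 3 fell and 1 rose (7.98 to 8.03 and 7.66 to 7.71). Cd3g and Itgae were below the filter value, and RMA gives no value of 0. In such bulk samples fewer cells of a type and less RNA per cell cannot be told apart, and the part of these cells in the heat shock results was not tested.

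Genes induced when cells are handled also differed. Of 12 immediate early genes 9 fell and 0 rose, beside 22.0% lower and 23.8% higher over all tested genes. Their mean ran from 9.21 to 9.26 in control pools and from 8.71 to 8.82 in threat animals. The largest differences were those of Fos (-1.26) and Fosb (-1.06), while Ier2 differed by 0.036 (adjusted p = 0.592) and Ier3 by 0.0065 (adjusted p = 0.937). For beta-actin the 3' minus the 5' control probe set, which reads RNA integrity, came to 0.47 ± 0.063 (SD, n = 3) in control pools and 0.36 ± 0.034 (SD, n = 6) in threat animals (exact permutation p = 0.0238), and exact p = 0.0714 without control pool 3-4 or without control pool 5-6. The same measure for Gapdh differed by -0.036 (exact permutation p = 0.512). The part of handling and of RNA integrity in the heat shock results was not tested.

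**Figure D4:**
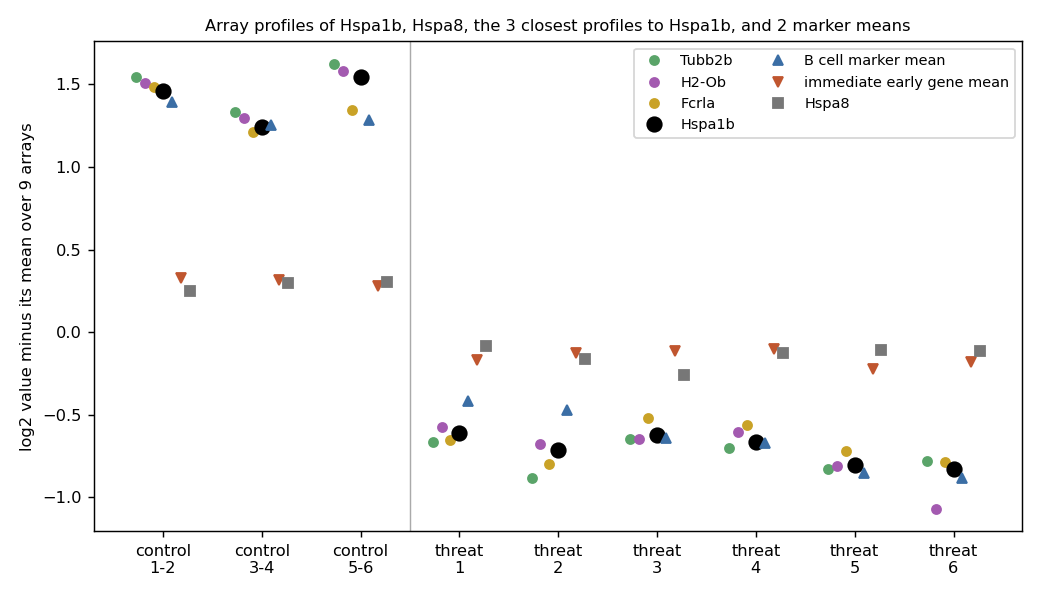
Log2 values minus their mean over the 9 arrays (vertical axis) on each array (horizontal axis) for Hspa1b, Hspa8, the 3 genes closest to Hspa1b and the means of 5 B cell and 12 immediate early genes; points of 1 array are spread sideways. The gap between groups is of similar size for Hspa1b, Tubb2b, H2-Ob, Fcrla and the B cell mean. It is smaller for Hspa8 and the immediate early mean.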

How the data were processed

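Total RNA of CD11b+ splenocytes was labelled with biotin and hybridised to Affymetrix MOE430 arrays, per the labels' protocols. Each deposited value is a probe set's expression on the log2 scale, which the authors obtained by RMA, according to the submitters' processing notes (version and settings not stated). Because RMA brings arrays to a common distribution, a change in total RNA per cell is not seen. The log2 scale was read from the values, which run from 0.607 to 13.567, and array medians lay between 3.19 and 3.22.

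Probe sets were named through the platform's annotation, with symbols updated to RefSeq (GRCm38.p6). Of 45037 that are not controls, 34945 name 1 gene and were used, 932 name several and 9160 none. The brightest probe set stood for a gene, and 13078 of 18193 genes had a mean at or above the 40th percentile, a log2 value of 2.66. Threat minus control was fitted over all of these with limma 3.58.1 (lmFit, eBayes) in R 4.3.3 with equal weights, two-sided, with Benjamini-Hochberg adjustment at 0.05. The SE is limma's moderated standard error. Results given per probe set come from the same fit over 27022 probe sets. Permutation tests were two-sided and exact. Figures were drawn with matplotlib 3.10.9.

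All genes under study, the lists, the test and the rule for named genes (from each list the 2 smallest p and the brightest gene) were chosen with earlier results of these data known. On simulated data with 13078 genes, 42% of 50 genes changed by 0.25 were recovered, 94% at 0.5 and 100% at 1 and at 2, with 16 false calls. Only 50 genes were changed at each size, all upward, whereas 45.8% of tested genes were called in the data. These rates therefore need not hold for the data. With 9 arrays, their number limits the precision. No label gives a batch. Alternatives covered the filter, the choice of probe set, scaling, limma's settings, weights, pairing and leaving out each array.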

Additional observations from a re-analysis of the deposited data

Results flagged for a closer look

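In each of 21 tested probe sets the highest and the lowest of the 6 threat animals were compared with their neighbours, and 2 stood apart. By chance about 1 in 20 groups is picked out in this way. At the Hspa1b probe set 1427126_at, threat animal 2 read 5.802 where the other 5 animals ran from 5.52 to 5.61, and it was still below every control pool. At the dim Hsp90aa1 probe set 1433251_at, threat animal 1 read 2.56 where the others ran from 2.76 to 2.78, a range near the filter value of 2.66.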

How the results depend on the processing

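Each result was recomputed under 23 alternatives. The calls of Hspa1a, Hspa1b, Hsph1, Hspa8, Hsp90aa1 and Hspd1 held under all 23. With transcript-specific probe sets taken first, Hspe1 lost its call (-0.10, adjusted p = 0.208) and Hspa8 moved to -0.83. Without each array in turn Hspe1 ran from -0.43 to -0.21. Dnajb1 gained one under 7 and Hspb1 under 1, averaging over probe sets, where their differences were -0.19 and -0.18. The number of called genes, 7, ran from 6 to 9, and from 7 to 8 without each array in turn. With the mean of probe sets Hspa4l was higher (0.13) and Dnajb6 lower (-0.21), against the main direction. Scaling on spike-ins gave 18 calls in the 7 lists by role, against 32, and 3790 over all genes, against 5995, while each probe set on its own gave 10749. The HSF1 target count, 7, ran from 4 to 7 without each array in turn, and the beta-actin difference from -0.149 to -0.087, with exact p = 0.0714 without control pool 3-4 and without control pool 5-6. Labels do not say that the animal numbers pair arrays, and deviations of pools and like-numbered animals correlated at 0.149, -0.152 and -0.029 over genes. With the number pairs as a replicate block 7 heat shock genes and 5945 genes in all were called. All are array values with no replicate hybridisation, so small differences of dim probe sets are the least certain.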
